A study of Mus musculus with 9 samples.

Results

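The matrix proteases and their inhibitors described here are 39 listed genes: the matrix metalloproteinases (Mmp), their Timp and Reck inhibitors, members of the Adam and Adamts families, 4 cathepsins and the cathepsin inhibitor cystatin C (Cst3). They were taken by symbol, with the probe set of highest mean where a symbol had several. Of the 39 genes 38 were measured among 19938 genes in all, and Mmp15 is not analysed here. RNA came from 9 cultured lines grown out of tumors that 4T1 cells had formed in mice; 4T1 is a mammary carcinoma line able to metastasize from the mammary gland. Of these, 3 lines came from brain metastases (4T1-BM2), 3 from lung metastases (4T1-LM2) and 3 from primary tumors (4T1-T2), called brain, lung and primary lines and numbered by mouse within each origin. The labels name no treatment, genotype or age for any group. By the series' design text each line came from its own mouse, and it was measured on 1 Affymetrix Mouse Gene array after growth side by side. The values therefore describe cells in a dish, without the tissue around them. The share of tumor cells in each line was not tested. The lines of an origin carry 1 common name whose meaning is not stated, and lines with a shared selected ancestor would be fewer than 3 independent samples.

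These enzymes cut the proteins that surround cells. Metalloproteinases of the Mmp family hold a zinc ion in their active site, are made as inactive precursors, and are either secreted or anchored in the membrane. Between them they degrade collagens, laminins, fibronectin and proteoglycans, and they also cut growth factors and cytokines. Timp proteins block the active site, and Reck is a membrane-anchored inhibitor. Adam proteins are membrane proteases that release the outer part of other membrane proteins, Adamts proteins are secreted and cut proteoglycans and procollagens among others, and cathepsins work mainly in lysosomes but can be secreted by tumor cells.

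Levels are log2 intensities, so a difference of 1 is a factor of 2 in signal, and they are compared between lines for 1 probe set at a time. The arrays had median levels between 5.06 and 5.19. The interquartile range of an array around the gene medians reached 0.178 for brain line 3 and 0.164 for lung line 1, and the 7 remaining arrays had 0.0886 to 0.126. The median level of probe sets with no gene symbol, 4.18, was used as a guide to background. By it, 31 of the 38 measured members lay above the guide in all 3 origins. The other 7 were Mmp7, Mmp16, Mmp19, Timp3, Timp4, Adamts15 and Ctsk. The guide is lenient, since 5 of 8 listed markers of brain tissue and 3 of 5 of lung epithelium also lay above it. A level just above it therefore does not show that a gene is expressed. All 9 listed markers of mammary carcinoma epithelium lay above that median in all origins, and their summed linear signal was 22460 to 25230 in brain lines, 19710 to 21330 in lung lines and 17540 to 20190 in primary lines. None of 5 endothelial markers did. Of 8 macrophage and leukocyte markers 3 did, and Ptprc, Csf1r, Adgre1, Itgam and Lyz2 did not.

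Brain lines differed from primary lines in 6 of the 38 members. Mmp9, Adam12 and Adamts1 rose, and Mmp3, Mmp13 and Reck fell (limma, adjusted p under 0.05 over all genes). These are 15.8% of the members, where 3.13% of all 19938 genes passed, and the percentages by direction over all genes were 1.56 for rises and 1.57 for falls. Against lung lines, brain lines differed in 5 members, the same genes without Reck, or 13.2% of the members where 1.98% of all genes passed (0.913% higher and 1.07% lower). Since the 2 comparisons share the brain lines, the second is not a repeat of the first. The members were chosen with earlier results of these data known, so these shares are descriptions and not a test of the list. Most members moved little: the median absolute log2 change over all 38 was 0.10 in brain against primary lines, beside 0.09 over all genes, and the median signed change was -0.01. Groups did not overlap in 10 members in brain against primary lines (26.3%, beside 17.8% of all genes), 4 with brain lines higher and 6 with brain lines lower (9.36% and 8.47% of all genes). In brain against lung lines they did not overlap in 12 members (31.6%, beside 16.9%), 6 higher and 6 lower (8.27% and 8.63% of all genes). An unadjusted p under 0.05 was reached by 11 members against primary lines and by 10 against lung lines, beside 15.8% and 14.9% of all genes.

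Between lung and primary lines none of the 38 members passed in limma, none had an unadjusted p under 0.05, and none passed without moderation of the variances. Over all genes 0% passed, 4.74% had an unadjusted p under 0.05, and groups did not overlap in 8.71% (4.88% higher and 3.84% lower in lung lines). The groups did not overlap in 6 of the 38 members: lung lines were higher in Adam12 (0.37), Timp1 (0.20) and Adam10 (0.09), and lower in Mmp14 (-0.28), Mmp11 (-0.21) and Mmp19. The called genes of the brain comparisons had intervals around 0 here, of -0.76 to 0.93 for Mmp3, -0.21 to 0.59 for Mmp9, -0.25 to 0.59 for Mmp13 and -0.37 to 0.78 for Adamts1. The F test over the 3 origins called 5 members, namely Mmp9, Adam12, Adamts1, Mmp3 and Mmp13, where 2.36% of all genes passed.

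**Figure D1:**
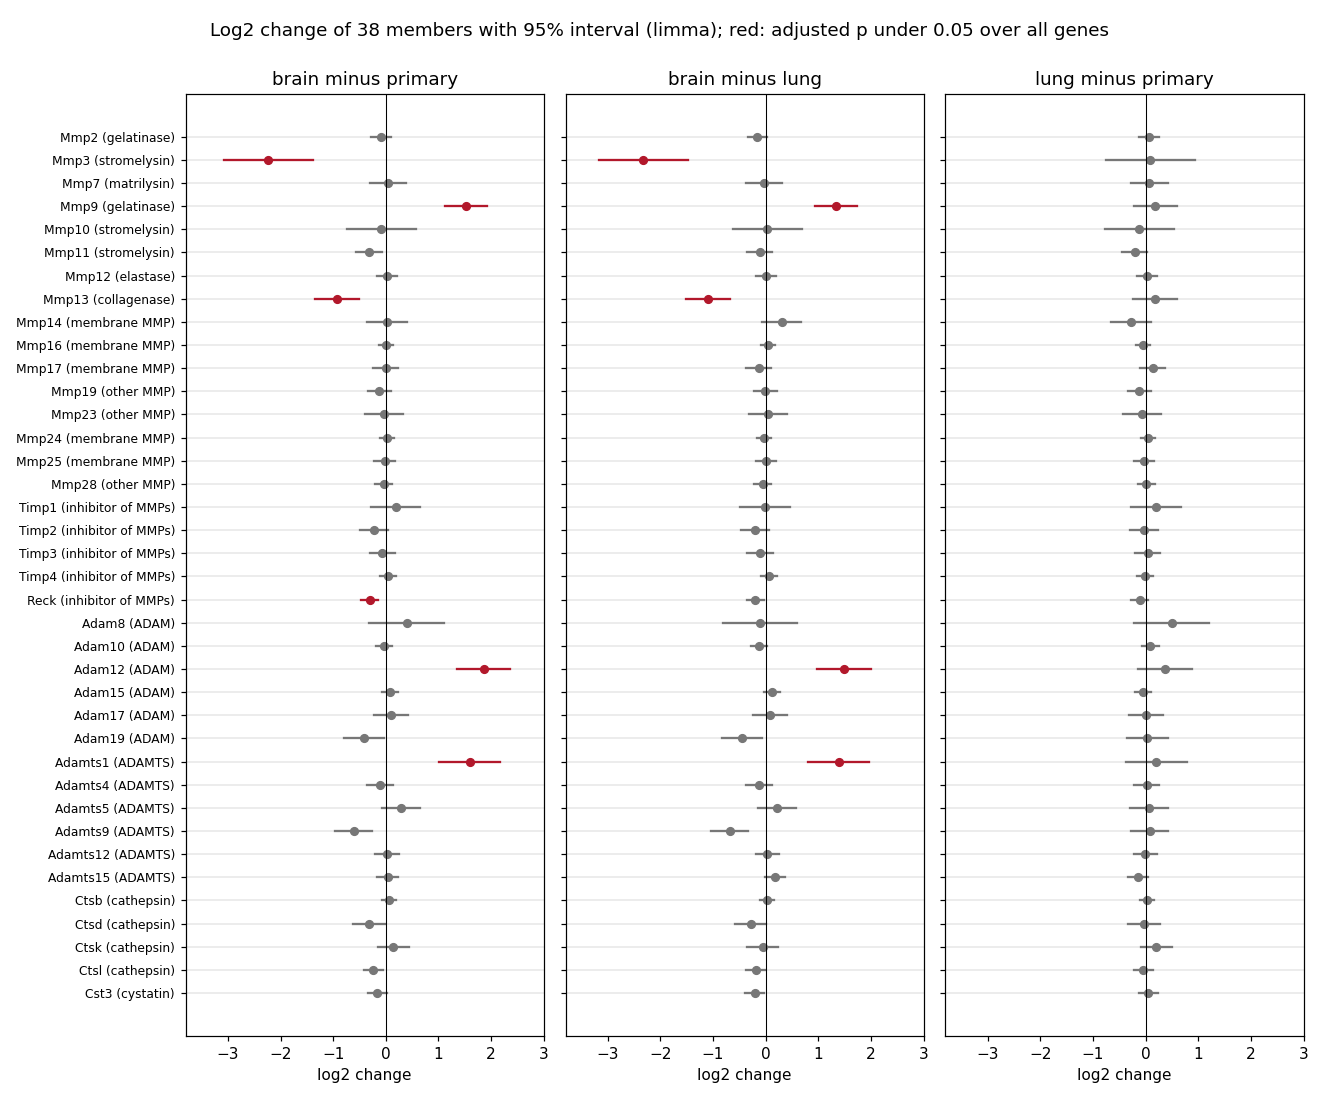
Log2 change (horizontal axis) of each of the 38 measured members in brain minus primary, brain minus lung and lung minus primary lines, with bars for the limma 95% interval and red for adjusted p under 0.05. The red points are 6 in the left panel, 5 in the middle and 0 in the right, and most other members lie close to 0.

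The gelatinases cut denatured collagen and the type IV collagen of basement membranes. Mmp9 had levels of 8.34, 8.21 and 8.998 in brain lines 1 to 3, against 7.34, 7.01 and 7.20 in lung lines and 7.04, 7.04 and 6.91 in primary lines. Every brain line lay above every other line, while lung and primary lines overlapped. Mmp9 was 2.87-fold higher in brain than in primary lines (log2 change 1.52 ± 0.18, SE, n = 3 lines per origin, limma adjusted p = 0.00336). It was 2.52-fold higher in brain than in lung lines (1.33 ± 0.18, adjusted p = 0.00899). The first call held in all 9 fits that left out 1 line, with adjusted p up to 0.0168. The second was lost without lung line 2 (0.0528). The other gelatinase, Mmp2, had mean levels of 5.88 in brain, 6.03 in lung and 5.96 in primary lines, and its log2 change in brain against primary lines was -0.09, with a 95% interval from -0.28 to 0.10.

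The stromelysins Mmp3 and Mmp10 cut proteoglycans, laminin and fibronectin and activate other proenzymes, and Mmp13 is a collagenase that cuts fibrillar collagen. Their genes lie in a run of 10 neighbouring Mmp genes on mouse chromosome 9, in the order Mmp13, Mmp12, Mmp1b, Mmp3, Mmp1a, Mmp10, Mmp8, Mmp27, Mmp20 and Mmp7. Mmp13, Mmp1b, Mmp3 and Mmp1a fell in brain against primary lines, while Mmp10, next to Mmp1a, had nearly equal means in the 3 origins.

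Mmp3 had levels of 9.66, 9.96 and 8.23 in brain lines, against 11.62, 11.81 and 11.40 in lung lines and 11.31, 11.92 and 11.33 in primary lines. All 3 brain lines lay below the other 6, and brain line 3 was lowest by more than 1 log2 unit. Mmp3 was 5.001-fold lower in brain than in lung lines (log2 change -2.32 ± 0.38, SE, n = 3 lines per origin, limma adjusted p = 0.0193) and 4.70-fold lower than in primary lines (-2.23 ± 0.38, adjusted p = 0.0145). The call against lung lines was lost when lung line 1, 2 or 3 was left out (0.0698, 0.0931 and 0.0574), and the call against primary lines without primary line 2 (0.0639). The change itself stayed between -2.66 and -1.80 against lung lines and between -2.57 and -1.71 against primary lines in those fits.

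Mmp13 had levels of 5.09, 5.14 and 4.67 in brain lines, against 5.81, 6.12 and 6.28 in lung lines and 5.64, 5.79 and 6.27 in primary lines. Brain lines again lay below all others, with brain line 3 lowest. Mmp13 was 2.15-fold lower in brain than in lung lines (-1.10 ± 0.19, adjusted p = 0.0214) and 1.91-fold lower than in primary lines (-0.93 ± 0.19, adjusted p = 0.0294). Its mean in brain lines, 4.97, was above the background guide but below the median level of every array. Cx3cr1, a listed marker of brain tissue, had a mean of 5.26 in the same lines. Expression of Mmp13 in brain lines is therefore not shown, and the size of its folds is uncertain. Against primary lines the call held in 3 of the 9 fits without 1 line, and ended on leaving out brain line 1 (0.0577), 2 (0.0592) or 3 (0.0843), lung line 2 (0.0575) or primary line 2 (0.0758) or 3 (0.0785). The call against lung lines did not hold without lung line 2 (0.0955), lung line 3 (0.0797) or brain line 3 (0.0640).

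Mmp10 had levels of 8.12, 8.38 and 7.20 in brain lines, against 7.49, 8.16 and 7.95 in lung lines and 7.63, 8.18 and 8.15 in primary lines. The 3 origins overlapped, and the wide range in brain lines came from line 3. The log2 change in brain against primary lines was -0.09 (95% interval -0.74 to 0.57) and against lung lines 0.03 (-0.62 to 0.69). These intervals do not reach those of Mmp3, which ran from -3.08 to -1.39 and from -3.17 to -1.48. The difference between the changes of Mmp3 and Mmp10 was not tested.

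The interstitial collagenase genes of the mouse, Mmp1a and Mmp1b, are not among the 39 listed genes. Mmp1a had levels of 4.53, 4.58 and 4.20 in brain lines, against 4.61, 5.12 and 5.39 in lung lines and 5.49, 6.35 and 5.41 in primary lines. It was 2.49-fold lower in brain than in primary lines (-1.31 ± 0.26, adjusted p = 0.0282, passing in 3 of 9 fits without 1 line) and did not pass against lung lines (-0.60 ± 0.26, adjusted p = 0.318). Its mean in brain lines, 4.44, lay close to the background guide. Mmp1b had a mean level of 3.91 in brain lines, below the background guide, against 4.59 in lung and 4.74 in primary lines (adjusted p = 0.0147 against primary and 0.0425 against lung lines, passing in 8 and 2 of 9 fits without 1 line). The 2 genes are near copies, and probes that bind both would not tell them apart. Mmp12, Mmp8, Mmp27, Mmp20 and Mmp7 did not pass in any comparison. Of these, Mmp8, Mmp27 and Mmp7 lay below the background guide, and Mmp12, the macrophage elastase, had means of 4.21 in brain, 4.21 in lung and 4.19 in primary lines, next to it.

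**Figure D2:**
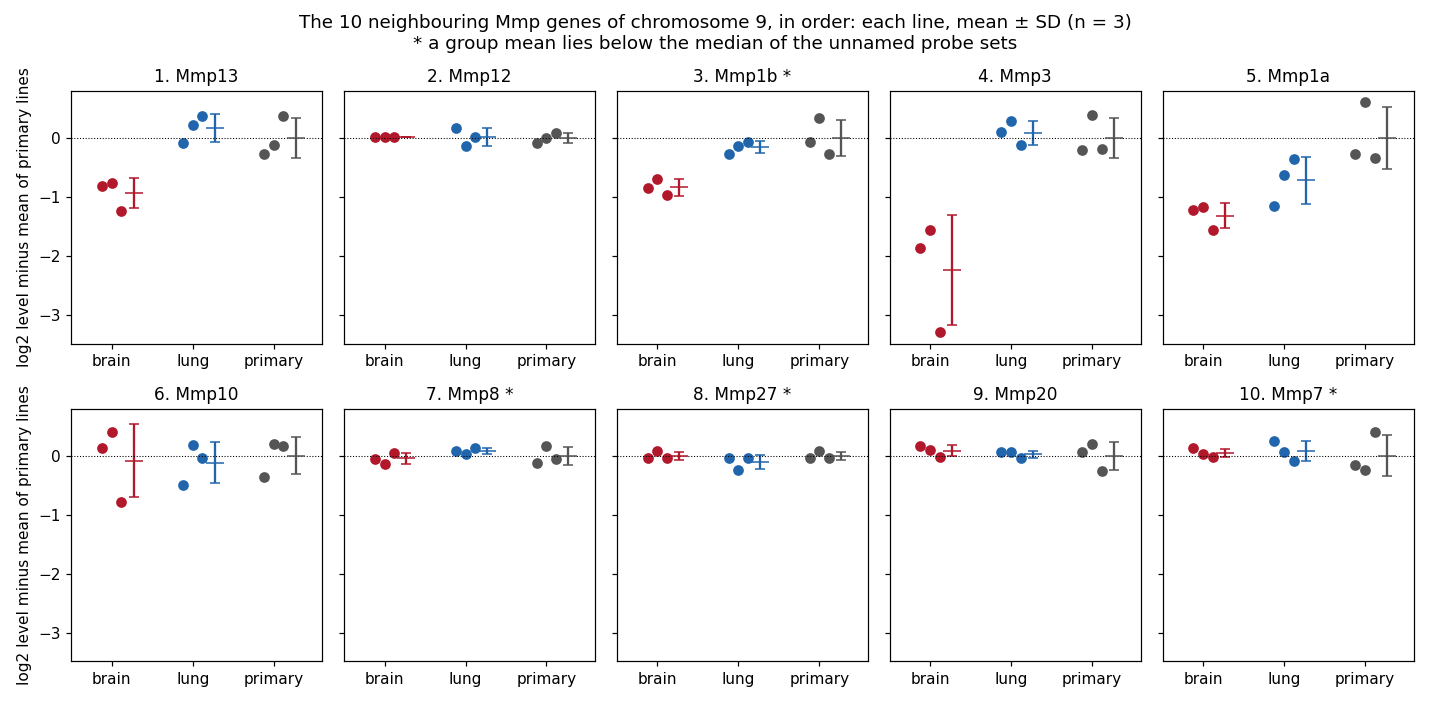
Log2 level minus the mean of the primary lines (vertical axis) for the 10 neighbouring Mmp genes of chromosome 9 in their order along it, with a point per line and the mean ± SD beside the points (n = 3 lines per origin). Brain lines lie below primary lines in Mmp13, Mmp1b, Mmp3 and Mmp1a, with mean changes of -0.93, -0.83, -2.23 and -1.31, and around them in Mmp10, at -0.09.

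The 5 promoters below are those of the run's genes that lay above background in some origin and fell in brain lines, with that of Mmp10 for comparison. They show where these motifs stand in each gene. Each is the 250 bases before the gene's start, 5′ to 3′ on the gene's strand, from RefSeq on build GRCm38.p6, with capitals for matches to the AP-1 motif TGANTCA (AP-1 is a transcription factor of Fos and Jun proteins) and to the TATA box TATAAA.
Mmp13 (chr9:7272264-7272513, + strand): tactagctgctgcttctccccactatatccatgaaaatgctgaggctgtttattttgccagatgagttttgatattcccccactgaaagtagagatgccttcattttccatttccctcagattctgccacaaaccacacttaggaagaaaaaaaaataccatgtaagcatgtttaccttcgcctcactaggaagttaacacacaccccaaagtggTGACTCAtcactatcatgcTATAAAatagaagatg
Mmp1b (chr9:7388027-7388276, - strand): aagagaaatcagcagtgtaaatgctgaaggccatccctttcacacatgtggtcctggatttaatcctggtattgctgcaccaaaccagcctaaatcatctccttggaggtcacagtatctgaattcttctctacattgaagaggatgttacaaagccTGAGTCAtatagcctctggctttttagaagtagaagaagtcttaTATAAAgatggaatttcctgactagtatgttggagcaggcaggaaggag
Mmp3 (chr9:7445572-7445821, + strand): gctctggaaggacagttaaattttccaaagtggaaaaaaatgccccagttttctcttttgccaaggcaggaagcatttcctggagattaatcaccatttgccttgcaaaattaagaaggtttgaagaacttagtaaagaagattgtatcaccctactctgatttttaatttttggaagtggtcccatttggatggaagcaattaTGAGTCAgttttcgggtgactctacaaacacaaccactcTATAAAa
Mmp1a (chr9:7463891-7464140, + strand): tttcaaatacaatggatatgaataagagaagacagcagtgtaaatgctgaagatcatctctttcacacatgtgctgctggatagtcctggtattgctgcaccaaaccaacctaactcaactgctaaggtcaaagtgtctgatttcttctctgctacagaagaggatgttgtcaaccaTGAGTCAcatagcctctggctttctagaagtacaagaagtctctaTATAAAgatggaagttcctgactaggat
Mmp10 (chr9:7502092-7502341, + strand): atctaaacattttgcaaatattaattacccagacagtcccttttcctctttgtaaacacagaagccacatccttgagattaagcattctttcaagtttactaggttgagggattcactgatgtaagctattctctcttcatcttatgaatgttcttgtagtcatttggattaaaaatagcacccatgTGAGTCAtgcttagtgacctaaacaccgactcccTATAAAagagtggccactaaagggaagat

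All 5 windows held an AP-1 match followed by a TATAAA. The AP-1 match began 35 bases before the start in Mmp13, 93 in Mmp1b, 46 in Mmp3, 73 in Mmp1a and 63 in Mmp10. These distances depend on the annotated RefSeq starts, which were not checked in these lines. The TATAAA began 7 bases before the start in Mmp3 and 49 in Mmp1b. From its first base to the first base of the TATAAA there were 19 bases in Mmp13, 44 in Mmp1b, 39 in Mmp3, 45 in Mmp1a and 34 in Mmp10. The letters of the match were TGAGTCA in all but Mmp13, which had TGACTCA. Of the 10 genes in the run, 8 held an AP-1 match and 7 a TATAAA. Over all 32851 promoters of the RefSeq table, searched on both strands in the same 250 bases, 6.75% held TGANTCA (which reads the same on both strands) and 12.4% held TATAAA or its reverse complement. Of the 39 listed genes, 29 had a promoter in that table, with 34 promoters between them. Mmp9 and Adam12 had none there, so no motif was searched for them. An AP-1 match was held by 6 of the 29 genes, namely Mmp13, Mmp12, Mmp3, Mmp10, Mmp7 and Adam19, and by 17.6% of the 34 promoters. Mmp1a and Mmp1b shared 196 of 225 aligned bases (87.1%), and the 9 other pairs of the 5 windows 48.5% (Mmp1b and Mmp10) to 64.9% (Mmp3 and Mmp10), with 42 to 86 gap bases. Unrelated promoters were not aligned. The AP-1 match stood in front of genes that fell and in front of Mmp10, which did not pass. Whether AP-1 has a part in these changes was not tested.

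An Ets motif, CAGGAAG, was searched in the same windows because Ets factors are known to act with AP-1 at Mmp promoters. It was found in 8 of the 29 genes. These were Mmp3 (184 bases before the start), Mmp7 (143), Timp1 (176 and 100), Timp3, Timp4, Adam10, Adam17 and Adamts12. Mmp13 and Mmp10 held no match. Counted by promoter, the Ets motif was in 23.5% of the 34 promoters of the 29 genes and in 10.8% of all promoters. The TEAD motif GGAATG was found in 4 of the 29, Cst3, Reck, Adam19 and Timp1. Counted by promoter, it was in 11.8% of the 34 promoters and in 12.6% of all promoters. Both were searched on both strands, and matches of different motifs did not overlap in these genes. A match is a run of letters, not a site shown to be bound. Adamts1 held a TATAAA 32 bases before its start.

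The third stromelysin, Mmp11, which is made mostly by stromal cells in breast tumors, did not pass. Its mean level was 7.36 in brain, 7.47 in lung and 7.68 in primary lines, with a log2 change in brain against primary lines of -0.32 (95% interval -0.56 to -0.08, adjusted p = 0.162), and every brain line was below every primary line. The membrane-anchored enzymes did not pass either. Mmp14, or MT1-MMP, which activates the Mmp2 precursor and cuts collagen at the cell surface, had levels of 10.51, 10.52 and 11.10 in brain lines, against 10.44, 10.33 and 10.46 in lung lines and 10.57, 10.51 and 10.98 in primary lines. Lung lines lay below the other 6, and brain and primary lines overlapped. Its log2 change was 0.02 in brain against primary lines (-0.35 to 0.40) and 0.30 against lung lines (-0.08 to 0.68). Mmp17, Mmp24 and Mmp25 had changes between -0.13 and 0.13 in all 3 comparisons. The remaining enzymes Mmp23 and Mmp28 had changes between -0.07 and 0.04, and Mmp16 and Mmp19 lay below the background guide. Over the whole family 1 of 16 measured Mmp members rose, 2 fell and 13 did not pass in brain against primary lines, with the same counts against lung lines.

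Among the inhibitors, the secreted Timp1 and Timp2 did not pass. Timp1 had levels of 10.30, 10.53 and 9.51 in brain lines, against 10.12, 10.21 and 10.04 in lung lines and 9.86, 9.91 and 10.005 in primary lines. Brain lines 1 and 2 were the highest of all 9 and brain line 3 the lowest, so the groups overlapped. The log2 change was 0.19 in brain against primary lines (95% interval -0.28 to 0.66). Without brain line 3 it was 0.49 and passed (adjusted p = 0.0408). Timp2, which also takes part in Mmp14's activation of Mmp2, had means of 10.85 in brain, 11.05 in lung and 11.08 in primary lines, and a change of -0.23 against primary lines (-0.50 to 0.04). Timp3 and Timp4 lay below the background guide in all origins. Reck had levels of 5.72, 5.82 and 5.87 in brain lines, against 5.97, 5.998 and 6.03 in lung lines and 6.01, 6.17 and 6.15 in primary lines. Brain lines were below the other 6, but the fall was small, 1.24-fold against primary lines (-0.31 ± 0.07, SE, n = 3 lines per origin, adjusted p = 0.0494). This call was lost in all 9 fits without 1 line (0.0605 to 0.151), after quantile normalization again (0.123) and after centring the arrays on their medians (0.185). Against lung lines Reck did not pass (-0.20 ± 0.07, adjusted p = 0.219).

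**Figure D3:**
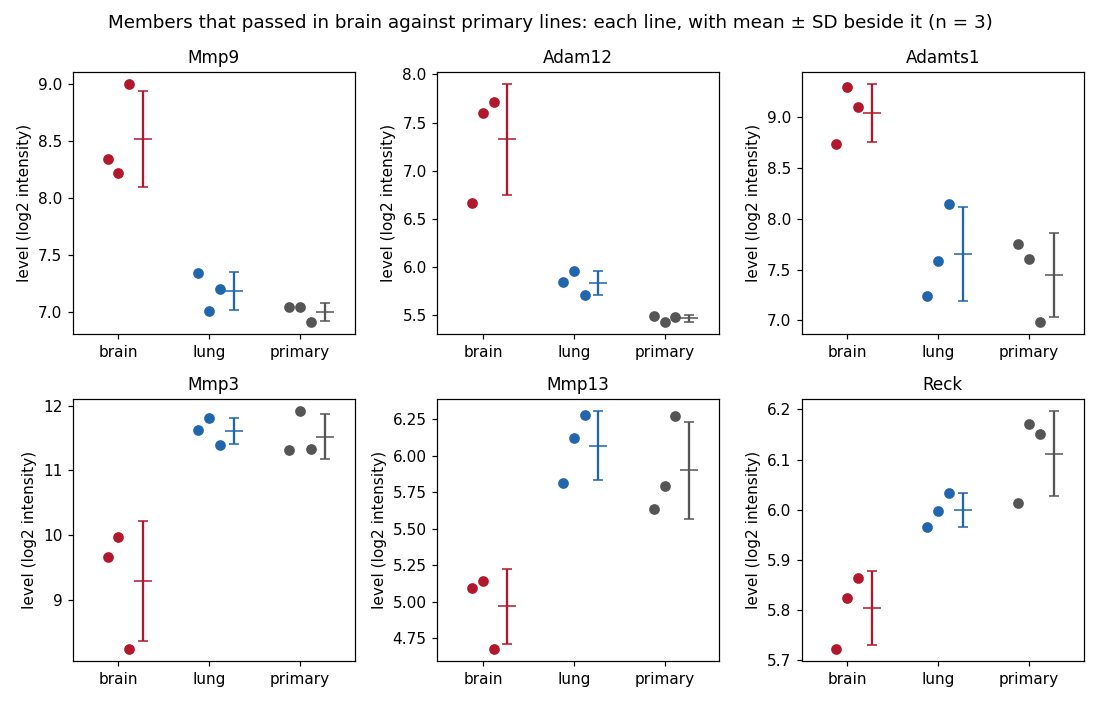
Log2 level (vertical axis, a scale per gene that does not start at 0) of the 6 members that passed in brain against primary lines, with a point per line and the mean ± SD beside the points (n = 3 lines per origin). Brain lines lie above the other 6 in Mmp9, Adam12 and Adamts1 and below them in Mmp3, Mmp13 and Reck, and lung and primary lines lie apart in Adam12 alone of the 6.

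Of the 6 Adam genes 1 passed. Adam12, a secreted or membrane-bound protease that releases the EGF receptor ligand HB-EGF and cuts IGF binding proteins, had levels of 6.66, 7.60 and 7.71 in brain lines, against 5.84, 5.96 and 5.71 in lung lines and 5.49, 5.43 and 5.48 in primary lines. The 3 origins did not overlap, and brain line 1 lay about 1 log2 unit below the other brain lines. Adam12 was 3.62-fold higher in brain than in primary lines (1.86 ± 0.23, SE, n = 3 lines per origin, limma adjusted p = 0.0037), and this held in all 9 fits without 1 line (up to 0.0197). It was 2.81-fold higher than in lung lines (1.49 ± 0.23, adjusted p = 0.0147), and that call ended when brain line 2 was left out (0.0503), or lung line 1 (0.0590), 2 (0.0635) or 3 (0.0596). Lung and primary lines differed by 0.37 ± 0.23, which did not pass (adjusted p = 0.975).

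The main sheddases Adam10 and Adam17, which act on Notch and on TNF and EGF receptor ligands, had log2 changes between -0.13 and 0.10 in all 3 comparisons, and the interval of Adam10 in brain against primary lines was -0.19 to 0.12. Adam15 had changes between -0.04 and 0.12. Adam19, related to Adam12, had mean levels of 7.19 in brain, 7.64 in lung and 7.60 in primary lines, opposite in direction to Adam12, and did not pass (-0.41 ± 0.17 against primary lines, adjusted p = 0.270). Adam8 varied widely within origins. It had levels of 7.57, 8.15 and 6.86 in brain lines, 8.08, 7.16 and 7.65 in lung lines and 7.42, 7.12 and 6.86 in primary lines. The origins overlapped, and with an interval of -0.31 to 1.10 in brain against primary lines little can be said of its change.

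Of the 6 Adamts genes 1 passed. Adamts1, which cuts the proteoglycans aggrecan and versican, had levels of 8.73, 9.29 and 9.10 in brain lines, against 7.24, 7.58 and 8.15 in lung lines and 7.75, 7.61 and 6.98 in primary lines. Brain lines lay above the other 6. Adamts1 was 3.02-fold higher in brain than in primary lines (1.59 ± 0.26, adjusted p = 0.0121), a call lost without brain line 2 (0.0509), and 2.62-fold higher than in lung lines (1.39 ± 0.26, adjusted p = 0.0270). The call against lung lines ended when brain line 2 (0.0882) or 3 (0.0927), or lung line 1 (0.0937) or 2 (0.118), was left out.

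Adamts9, a related proteoglycan-cutting enzyme, did not pass. Its mean level was 7.04 in brain, 7.72 in lung and 7.65 in primary lines, and brain lines did not overlap with either other origin. The log2 change was -0.69 ± 0.16 against lung lines (adjusted p = 0.0651) and -0.61 ± 0.16 against primary lines (adjusted p = 0.0774). It was the only measured member with several probe sets, and all 6 of them had a lower mean in brain lines, with changes from -1.21 to -0.55 against lung lines and from -1.20 to -0.46 against primary lines. None of the 6 passed over all probe sets, and probe sets of 1 gene are not replicates. Without the dimmest genes its call against lung lines was made (0.0429). Adamts4, Adamts5 and Adamts12 did not pass, with changes between -0.12 and 0.29, and Adamts15 lay at the background guide.

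None of the 4 cathepsins or Cst3 passed in limma. Against primary lines 2 of them (Ctsd and Ctsl) had an unadjusted p under 0.05, beside 15.8% of all genes. Against lung lines 2 (Ctsl and Cst3) did, beside 14.9% of all genes. The cysteine protease Ctsl had levels with little spread: 12.24, 12.38 and 12.06 in brain lines, 12.40, 12.45 and 12.40 in lung lines and 12.43, 12.49 and 12.47 in primary lines. Brain lines lay just below the other 6, and the log2 change was -0.23 in brain against primary lines (95% interval -0.42 to -0.05, adjusted p = 0.184). Ctsb, also a cysteine protease, had a change of 0.06 (-0.08 to 0.20), and the aspartic protease Ctsd one of -0.31 (-0.61 to -0.01, adjusted p = 0.304). Cst3, which inhibits cysteine cathepsins, had means of 12.07 in brain, 12.28 in lung and 12.24 in primary lines. Ctsk, the bone collagen protease of osteoclasts, lay below the background guide.

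Brain lines varied more among themselves than the others over these members. The median SD within an origin was 0.145 in brain, 0.110 in lung and 0.101 in primary lines over the 38 members, beside 0.106, 0.102 and 0.0908 over all genes. The widest of the 3 SDs fell in brain lines for 18 of 38 members (47.4%, beside 36.6% of all genes). Brain line 3 was the line farthest from the brain mean in 20 of 38 members (52.6%, beside 38.7% of all genes), and it held the lowest brain level of Mmp3, Mmp13, Mmp10 and Timp1 and the highest of Mmp9 and Adam12. These shares are descriptions, with no test.

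Leaving out 1 line moved the counts of members that passed. Against primary lines 6 members passed with all lines, 3 without brain line 2 and 3 without primary line 2, and 4 or 5 when 1 of the other 7 was left out. Against lung lines 5 passed with all lines, 0 without lung line 2, 2 without lung line 1, 2 without lung line 3, 3 without brain line 2 and 3 without brain line 3, and 5 when 1 of the other 4 was left out. The counts over all genes were lower in these fits as well. Against primary lines 624 genes passed with all lines and 273 to 556 without 1 line (338 without brain line 2 and 273 without primary line 2). Against lung lines 395 passed with all lines, 69 without lung line 2, 136 without lung line 1 and 142 without lung line 3. In the F test 5 members passed with all lines, 3 when any single brain line was left out and 2 without lung line 2.

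**Figure D4:**
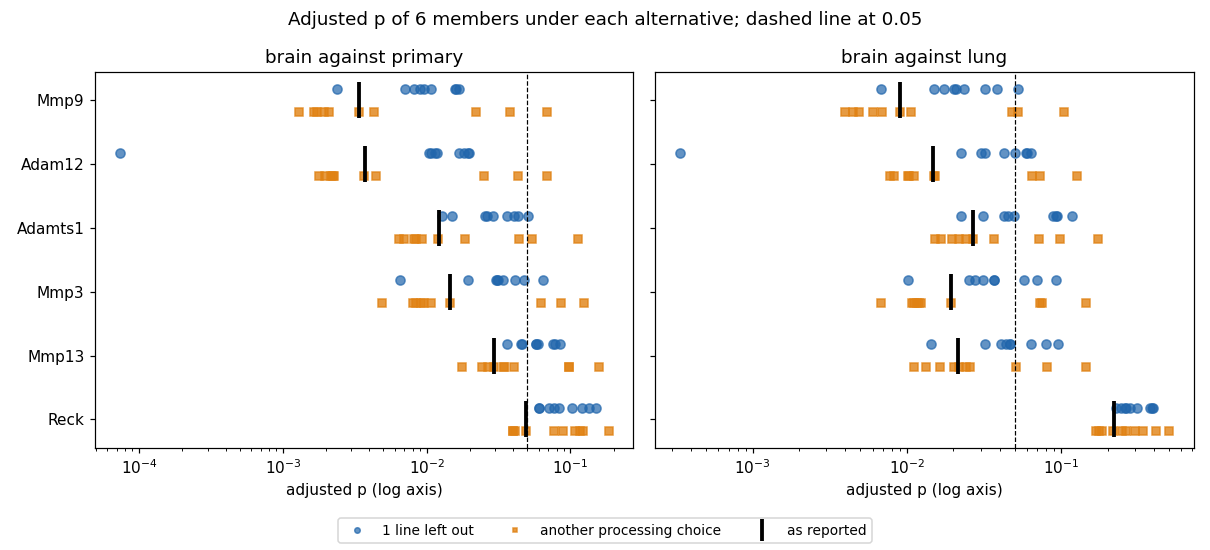
Adjusted p (horizontal log axis) of the 6 members in brain against primary and brain against lung lines, as reported (black bar), with 1 line left out (blue) and under other processing choices (orange), with a dashed line at 0.05. Mmp9 and Adam12 against primary lines stay left of the dashed line in all fits without 1 line, and cross it (0.0682 and 0.0691) only without moderation of the variances, while Reck's reported value against primary lines, 0.0494, lies next to the dashed line, and all its fits without 1 line lie right of it.

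The wider protease network held 75 measured genes of 79 listed: other Mmp, Adam and Adamts genes, the plasminogen system, other cathepsins, cystatins, convertases, membrane serine proteases and matrix partners. In brain against primary lines 4 rose, 5 fell and 66 did not pass, so that 12% passed, beside 3.13% of all genes. In brain against lung lines 3 rose, 1 fell and 71 did not pass, so that 5.33% passed, beside 1.98% of all genes. The wider lists too were chosen with earlier results of these data known, so these shares are descriptions and not a test. With the mouse number as a block 3 rose and 4 fell against lung lines, where 566 of all genes passed, against 395 without the block. None passed between lung and primary lines in limma, where 5 of the 75 had an unadjusted p under 0.05, beside 4.74% of all genes. The count against primary lines was 5 without brain line 2, 3 without brain line 3, 5 without lung line 2, 4 without primary line 1 and 3 without primary line 2. The count against lung lines was 0 without brain line 1, lung line 1, lung line 2 or primary line 1, 1 without lung line 3, and 2 on leaving out primary line 2 or 1 of brain lines 2 and 3.

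Of 9 membrane serine proteases and inhibitors 3 rose against primary lines. Prss22, a tryptase-like protease, was 1.62-fold higher in brain lines (0.69 ± 0.10, adjusted p = 0.00686, passing in 9 of 9 fits without 1 line). St14, which encodes the epithelial protease matriptase, was 1.59-fold higher (0.67 ± 0.13, adjusted p = 0.0225, 5 of 9), and Prss23, a serine protease, 2.51-fold higher (1.33 ± 0.26, adjusted p = 0.0250, 4 of 9). Of the 9 epithelial markers 3 (Krt19, Cdh1 and Cldn3) also rose in that comparison, and their summed signal given above was higher in every brain line than in every primary line; the part of this in the protease changes was not tested. Spint1, an inhibitor of matriptase, had a change of -0.11 ± 0.11 and did not pass. Against lung lines 2 of the 9 genes rose, Prss22 (0.49 ± 0.10, adjusted p = 0.0376) and St14 (0.61 ± 0.13, adjusted p = 0.0423). Each of these calls held in 2 of 9 fits without 1 line. Prss23 did not pass against lung lines (adjusted p = 0.114).

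Of 11 other cathepsins Ctsw rose and Ctsh fell. Ctsw, known from cytotoxic lymphocytes, had levels of 6.19, 5.63 and 7.004 in brain lines, against 4.85, 5.05 and 5.05 in lung lines and 4.42, 4.58 and 4.59 in primary lines. It was 3.35-fold higher in brain than in primary lines (1.74 ± 0.27, adjusted p = 0.00973, 9 of 9 fits without 1 line) and 2.45-fold higher than in lung lines (1.29 ± 0.27, adjusted p = 0.0408, 2 of 9). The leukocyte marker Ptprc had means of 3.92 in brain, 3.87 in lung and 3.90 in primary lines, below the background guide. None of the 8 macrophage and leukocyte markers passed in limma, and their median log2 change in brain against primary lines was 0.02. In 1 of them, Cd14, every brain line lay above every primary line (0.51 ± 0.13, adjusted p = 0.0669). The part of leukocytes in the rise of Ctsw was not tested. Ctsh, a lysosomal aminopeptidase, was 1.47-fold lower in brain than in primary lines (-0.55 ± 0.09, adjusted p = 0.0151, 5 of 9). Adam9 (-0.47 ± 0.10, adjusted p = 0.0396, 1 of 9) and Adamts7 (-0.50 ± 0.11, adjusted p = 0.0430, 2 of 9) also fell.

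None of the 6 measured plasminogen system genes passed in limma, and 2 had an unadjusted p under 0.05 against primary lines, beside 15.8% of all genes. Plau, the urokinase that turns plasminogen into plasmin, had means of 9.18 in brain, 8.85 in lung and 8.56 in primary lines (0.61 ± 0.20 against primary lines, adjusted p = 0.145), and Plat, the tissue-type activator, means of 6.21, 6.71 and 7.13 in the same order (-0.92 ± 0.22, adjusted p = 0.0610). The 4 convertases, which include Furin, the activator of membrane Mmp precursors, did not pass, nor did 3 other cystatins or 13 other matrix and shedding partners.

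Fibroblasts also make Mmp3, Mmp13 and Mmp11. Of 8 fibroblast markers listed, 5 lay above the background guide in all origins and Pdgfrb, Dcn and Lum did not. None passed in any comparison in limma. In brain against primary lines 3 of the 8 (Col1a2, Pdgfra and Pdgfrb) had an unadjusted p under 0.05, beside 15.8% of all genes. The list's summed linear signal was 434 to 474 in brain lines, 471 to 503 in lung lines and 481 to 599.9 in primary lines, so brain and primary lines did not overlap and brain and lung lines did. Its part in the falls of Mmp3 and Mmp13 was not tested. The summed signal of the 4 neutrophil markers, a cell type that stores Mmp9, was 60.02 to 62.0 in brain lines, 59.2 to 64.5 in lung lines and 59.97 to 67.4 in primary lines, which overlap. Of these markers S100a8, Ly6g and Elane did not lie above the background guide in all origins. S100a9 lay next to it, with means of 4.31 in brain, 4.26 in lung and 4.27 in primary lines. A sum so near background cannot tell whether such cells differ between origins. Of the markers of brain tissue and of lung epithelium, 5 of 8 and 3 of 5 lay above the background guide and none passed in brain against primary or lung lines.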

How the data were processed

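The deposited values are log2 intensities which the authors computed by RMA according to the submitters' processing notes. Neither the version of RMA nor a build of the genome was given in the sources used here, and the log base was read from the range of the values. Of 35557 probe sets, 21789 had 1 gene symbol in the platform annotation, 1621 several and 12147 none. The probe set of highest mean per symbol gave 19938 genes.

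Genes were tested with limma 3.58.1 in R 4.3.3 (lmFit, eBayes, two-sided), fitting the 9 arrays together with 1 mean for each origin (6 residual and 3.72 prior degrees of freedom) and Benjamini-Hochberg adjustment over all genes, called under 0.05. Intervals are 95% limits of the model. An exact permutation test of 3 against 3 lines cannot go below 0.1, so none is given. The number of arrays limits the precision. No detection p was used.

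Every member was described, with full values for those that passed or had the 3 largest changes in a comparison. Adamts9, Mmp10, Timp1 and Ctsl were added after their values were seen. Of the wider lists, members that passed were named, and Plau, Plat and Spint1 after their values were seen. A fold is given only where both means exceed 4.18. The members and lists were chosen with earlier results of these data known. Promoters came from RefSeq (GRCm38.p6) and were aligned with Biopython 1.88; gene order came from the same assembly. The 50 bases after the start, planned too, were not searched, and protein motifs were planned and not run.

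The mouse numbers are shared by the origins. The departures from the group mean of lines with the same number correlated at 0.284, 0.130 and 0.241 between brain and lung lines, all above 0.1, and at 0.067, -0.001 and -0.044 between brain and primary lines, and at 0.221, 0.079 and 0.008 between lung and primary lines. The series' design text counts 9 mice, so any pairing comes from the data alone.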

Additional observations from a re-analysis of the deposited data

How the results depend on the processing

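The alternatives were quantile normalization again, median centring, leaving out the dimmest 33.3% of genes, a prior variance that follows intensity, weights for arrays, each line left out in turn, the replicate block, every probe set as a feature, probe sets averaged within genes, the 6 arrays compared, a threshold of 0.01 and no moderation of the variances. No called change of a named member turned sign. The 11 calls of members in the 2 brain comparisons gave 220 results under the alternatives, of which 150 kept the call and 70 lost it. Over all 38 members 2 calls were gained, by Adamts9 against lung lines without the dimmest genes (0.0429) and by Timp1 against primary lines without brain line 3 (0.0408). Members that passed in brain against primary lines (6) numbered 2 with every probe set, 3 with the 6 arrays, 2 at 0.01 and 0 without moderation, and 3 to 5 without 1 line. Against lung lines (5) they numbered 1, 0, 1 and 0, and 0 to 5 without 1 line. In the F test (5) they numbered 1 with every probe set, 2 at 0.01 and 0 without moderation, and 2 to 5 without 1 line. For the wider network the counts were 2, 0, 2 and 0 against primary lines (9) and 0, 1, 0 and 0 against lung lines (4), with 3 to 8 and 0 to 3 without 1 line. Under the replicate block the wider network against lung lines had 7, and members stayed at 6, 5 and 5 in the 2 comparisons and the F test. The block changed no call of a named member. Between lung and primary lines the counts were 0 throughout. Using every probe set adjusts over more features, and leaving out lines removes samples. The part of either in the lost calls, and any other cause of these changes, was not tested.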
